A study of Mus musculus with 23 samples.

Results

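Genes of the kinin, contact and fibrinolytic systems were followed in mouse liver by RNA sequencing, in 15 mice of 3 genotypes. The set of 9 genes was taken by symbol from the 27179 genes of the deposited count table, and all of them were found. They are the kininogens *Kng1* and *Kng2*, plasminogen (*Plg*), plasma prekallikrein (*Klkb1*), coagulation factor XII (*F12*), the plasminogen activators *Plat* and *Plau*, the plasmin inhibitor *Serpinf2* and histidine-rich glycoprotein (*Hrg*). They were set beside 15 other kinin and contact system genes and 18 other fibrinolysis genes.

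In the contact system, factor XII and plasma prekallikrein activate each other on a surface, and kallikrein then cuts kininogen to free bradykinin, a short peptide that dilates vessels and makes them leak. In fibrinolysis, tissue-type plasminogen activator (*Plat*) and urokinase (*Plau*) cut plasminogen to plasmin, which dissolves fibrin, and the serpin alpha2-antiplasmin, the product of *Serpinf2*, blocks plasmin. The liver is the main source of the precursors, the contact proteases and the plasmin inhibitor in plasma, whereas the activators are made mostly outside hepatocytes.

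Livers came from female mice, and the tissue taken was free of visible tumors. All 3 groups carried the hepatocyte-directed Alb-Cre transgene and the *Trp53* flx/flx allele pair, so *Trp53* was targeted in the controls as well. Ctrl mice (n = 6) had wild-type *Braf* and were *Icmt* flx/+, ABpIF/+ mice (n = 6) carried the *Braf* CA/+ allele, from which Cre recombination gives BRAF V600E, with *Icmt* flx/+, and ABpIF/F mice (n = 3) carried *Braf* CA/+ with *Icmt* flx/flx. *Icmt* encodes the methyltransferase that finishes the processing of RAS and other CAAX proteins. Alb-Cre acts in cells that express albumin, and the alleles stay unrecombined where Cre has not acted. The paper describes the *Icmt* flx allele as hypomorphic, with lower expression also where it is not excised. The ABpIF/F mice were of different ages and bore liver tumors, while no source used here ties an age to a library. Visible liver tumors were also reported for a part of the ABpIF/+ mice. ABpIF/+ vs Ctrl addresses the *Braf* allele in livers in which *Trp53* is targeted and 1 *Icmt* allele is left, ABpIF/+ vs ABpIF/F addresses the targeting of the other *Icmt* allele, and ABpIF/F vs Ctrl addresses both changes at once.

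Libraries held 24742910 to 32262649 counted reads per mouse, and levels are given as CPM, the reads of a gene scaled to a library of 1e6 reads. *Icmt*, the gene that separates the last pair of groups, stood at 27.8 to 34.7 CPM in Ctrl, 27.8 to 37.4 CPM in ABpIF/+ and 15.2 to 16.6 CPM in ABpIF/F. The hepatocyte markers were abundant in all libraries, with a sum over 9 genes of 99884 to 133735 CPM in Ctrl, 176773 to 244529 CPM in ABpIF/+ and 126187 to 220047 CPM in ABpIF/F. A score of circadian clock genes lay between -4.55 and -3.49 in 11 mice, and at 0.316, -1.06, 1.58 and -0.216 in the Ctrl mouse malpa387 and the ABpIF/F mice BG183, BG90 and BG38. All strain labels describe a B6 cross with the *Icmt*, *Trp53*, *Braf* and Alb-Cre alleles. Those of the ABpIF/+ and ABpIF/F mice and of 1 Ctrl mouse, BG3, add a further cross to a B6 line carrying *Icmt*, *Trp53* and *Braf* alleles, which those of the other 5 Ctrl mice lack.

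*Kng1* (Entrez 16644, chr16:23057865-23082078, plus strand, GRCm38) and *Kng2* (Entrez 385643, chr16:22985854-23029482, minus strand) are a pair of neighbours whose start sites lie 28.4 kb apart and point away from each other. *Hrg* (Entrez 94175, chr16:22951072-22961656, plus strand) starts 106.8 kb from *Kng1* on the side of *Kng2*. *Serpinf2* (Entrez 18816) is on chr11:75431732-75439591. All 9 genes are protein-coding.

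Both kininogen genes encode bradykinin, in 3 of 4 annotated *Kng1* transcripts and 5 of 7 of *Kng2*. The codons of the 9 residues are shown in capitals with 9 bases on each side, read from the GENCODE M21 transcripts, because they are the part of these mRNAs that gives the group its name.
*Kng1*: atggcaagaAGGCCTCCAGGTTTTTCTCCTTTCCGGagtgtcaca
*Kng2*: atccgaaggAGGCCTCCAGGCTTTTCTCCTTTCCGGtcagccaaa
Counted from 1 at the first capital, the 27 bases differed from *Kng1* to *Kng2* by T12C only, a change that leaves the encoded residues the same. Of all 150-base windows of the longest *Kng1* transcript, 2.14% occur letter for letter in a *Kng2* transcript, so most reads of the pair can be told apart.

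RefSeq promoter entries (GRCm38.p6) were found for 5 of the 9 genes. The 250 bases before the start are shown for the entries among the 4 genes that rose together below, with matches in capitals to AP-1 (TGANTCA) or C/EBP (TTGCNNAA) letters on either strand, the former named for the AP-1 factors that ERK signalling activates and the latter for the liver-enriched C/EBP factors.
Kng2 (chr16:23029102-23029351, minus strand): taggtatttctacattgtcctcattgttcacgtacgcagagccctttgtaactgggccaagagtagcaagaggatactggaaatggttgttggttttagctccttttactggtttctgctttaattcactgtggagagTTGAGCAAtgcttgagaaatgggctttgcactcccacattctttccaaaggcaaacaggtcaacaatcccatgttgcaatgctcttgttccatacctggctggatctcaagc
Hrg (chr16:22950822-22951071, plus strand): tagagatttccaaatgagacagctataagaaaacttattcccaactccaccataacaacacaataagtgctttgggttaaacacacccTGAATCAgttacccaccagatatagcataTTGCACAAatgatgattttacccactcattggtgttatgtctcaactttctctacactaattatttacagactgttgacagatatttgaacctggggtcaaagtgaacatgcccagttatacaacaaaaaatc
Serpinf2 (chr11:75439502-75439751, minus strand): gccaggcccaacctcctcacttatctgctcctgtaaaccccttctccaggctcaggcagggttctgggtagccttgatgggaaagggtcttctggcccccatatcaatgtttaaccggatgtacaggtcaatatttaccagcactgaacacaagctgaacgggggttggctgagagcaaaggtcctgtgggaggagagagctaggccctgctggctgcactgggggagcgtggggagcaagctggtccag
The C/EBP letters stood in the *Kng2* and *Hrg* windows and the AP-1 letters in that of *Hrg*, while the *Serpinf2* window held neither. Of the entries not shown, that of *Klkb1*, which fell, held the C/EBP letters and that of *F12* held neither. Of 32851 promoter entries of 300 bases each, 10.8% held the C/EBP letters and 7.81% the AP-1 letters. The other 3 patterns searched, letters of an HNF1 site (GTTAAT, in 7.1% of entries), an HNF4 site (CAAAGTCCA, 0.475%) and an E-box (CACGTG, 7.15%), matched none of the 5 entries.

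In ABpIF/+ vs Ctrl, the kininogens, *Plg*, *Serpinf2* and *Hrg* rose, and the contact protease *Klkb1* fell. Of the 9 genes, 5 rose (*Kng1*, *Kng2*, *Hrg*, *Serpinf2* and *Plg*) and 2 fell (*Klkb1* and *Plau*) at an adjusted p under 0.05, against 12.7% up and 12.7% down among all 27179 genes. At the stricter rule, an adjusted p under 0.01 with a 2-fold change, 4 were called up and 0 down, against 4.69% up and 5.35% down of all genes. Among the 12316 genes that averaged 1 CPM or more, as 8 of the 9 did, the shares were 24.1% up and 23.3% down at 0.05 and 8.21% up and 9.39% down under the stricter rule, so the 2 genes that fell are near the background. In 6 of the 9 genes the mice of the groups did not overlap, against 31.3% of the 12316. The median log2 fold change was 0.46 over the 9 genes and 0.02 over those 12316.

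*Kng1* mRNA was at 2202, 2376 and 2710 CPM in Ctrl (lowest, median and highest mouse), at 5701, 6192.5 and 6959 CPM in ABpIF/+, and at 4397, 6150 and 4203 CPM in the ABpIF/F mice BG183, BG90 and BG38. All 9 mice with the *Braf* allele stood above all 6 Ctrl mice, and BG90 lay within the range of ABpIF/+ while BG183 and BG38 lay below it. *Kng1* was 2.6-fold higher in ABpIF/+ than in Ctrl (log2 fold change 1.38 ± 0.14 SE, adjusted p = 1.1e-07) and 2.05-fold higher in ABpIF/F than in Ctrl (1.04 ± 0.16, adjusted p = 7.98e-05). *Kng2* followed it closely, at 266, 297 and 341 CPM in Ctrl, 703, 752 and 830 CPM in ABpIF/+, and 532.0, 816.9 and 526.2 CPM in BG183, BG90 and BG38. Its ranges were ordered in the same way, with no Ctrl mouse reaching a mouse with the *Braf* allele. The fold changes of *Kng2* were 2.54 in ABpIF/+ vs Ctrl (adjusted p = 5.8e-08) and 2.08 in ABpIF/F vs Ctrl (adjusted p = 2.9e-05).

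The 2 kininogens kept their proportion. *Kng2* gave 11.2 ± 0.596% (SD, n = 6) of the summed kininogen counts in Ctrl, 10.9 ± 0.264% (n = 6) in ABpIF/+ and 11.2 ± 0.458% (n = 3) in ABpIF/F. Over single mice that share ran from 10.3% to 11.8%, both ends of the range being Ctrl mice.

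*Serpinf2*, whose product is the main plasma inhibitor of plasmin, stood at 800, 832 and 1028 CPM in Ctrl and at 2224, 2362 and 2721 CPM in ABpIF/+, the lowest, median and highest mouse of each. In the ABpIF/F mice BG183, BG90 and BG38 it stood at 2480.0, 2588 and 1769 CPM. No mouse with the *Braf* allele overlapped Ctrl, and BG183 and BG90 lay inside the ABpIF/+ range. The rise was 2.7-fold in ABpIF/+ (log2 fold change 1.43 ± 0.14, adjusted p = 4.89e-08) and 2.56-fold in ABpIF/F (1.36 ± 0.16, adjusted p = 2.16e-06).

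*Hrg*, a plasma protein that binds plasminogen, heparin and fibrinogen, stood at 757, 877 and 952 CPM in Ctrl, at 1510.1, 1834 and 2327.5 CPM in ABpIF/+ and at 1369, 1867 and 1124.5 CPM in BG183, BG90 and BG38. The groups with the *Braf* allele did not overlap Ctrl, but only BG90 reached the ABpIF/+ range. *Hrg* rose 2.17-fold in ABpIF/+ vs Ctrl (adjusted p = 4.44e-06) and 1.69-fold in ABpIF/F vs Ctrl (adjusted p = 0.00357). The second call rested on BG90, without which the log2 fold change was 0.53 and the adjusted p 0.0648.

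**Figure D1:**
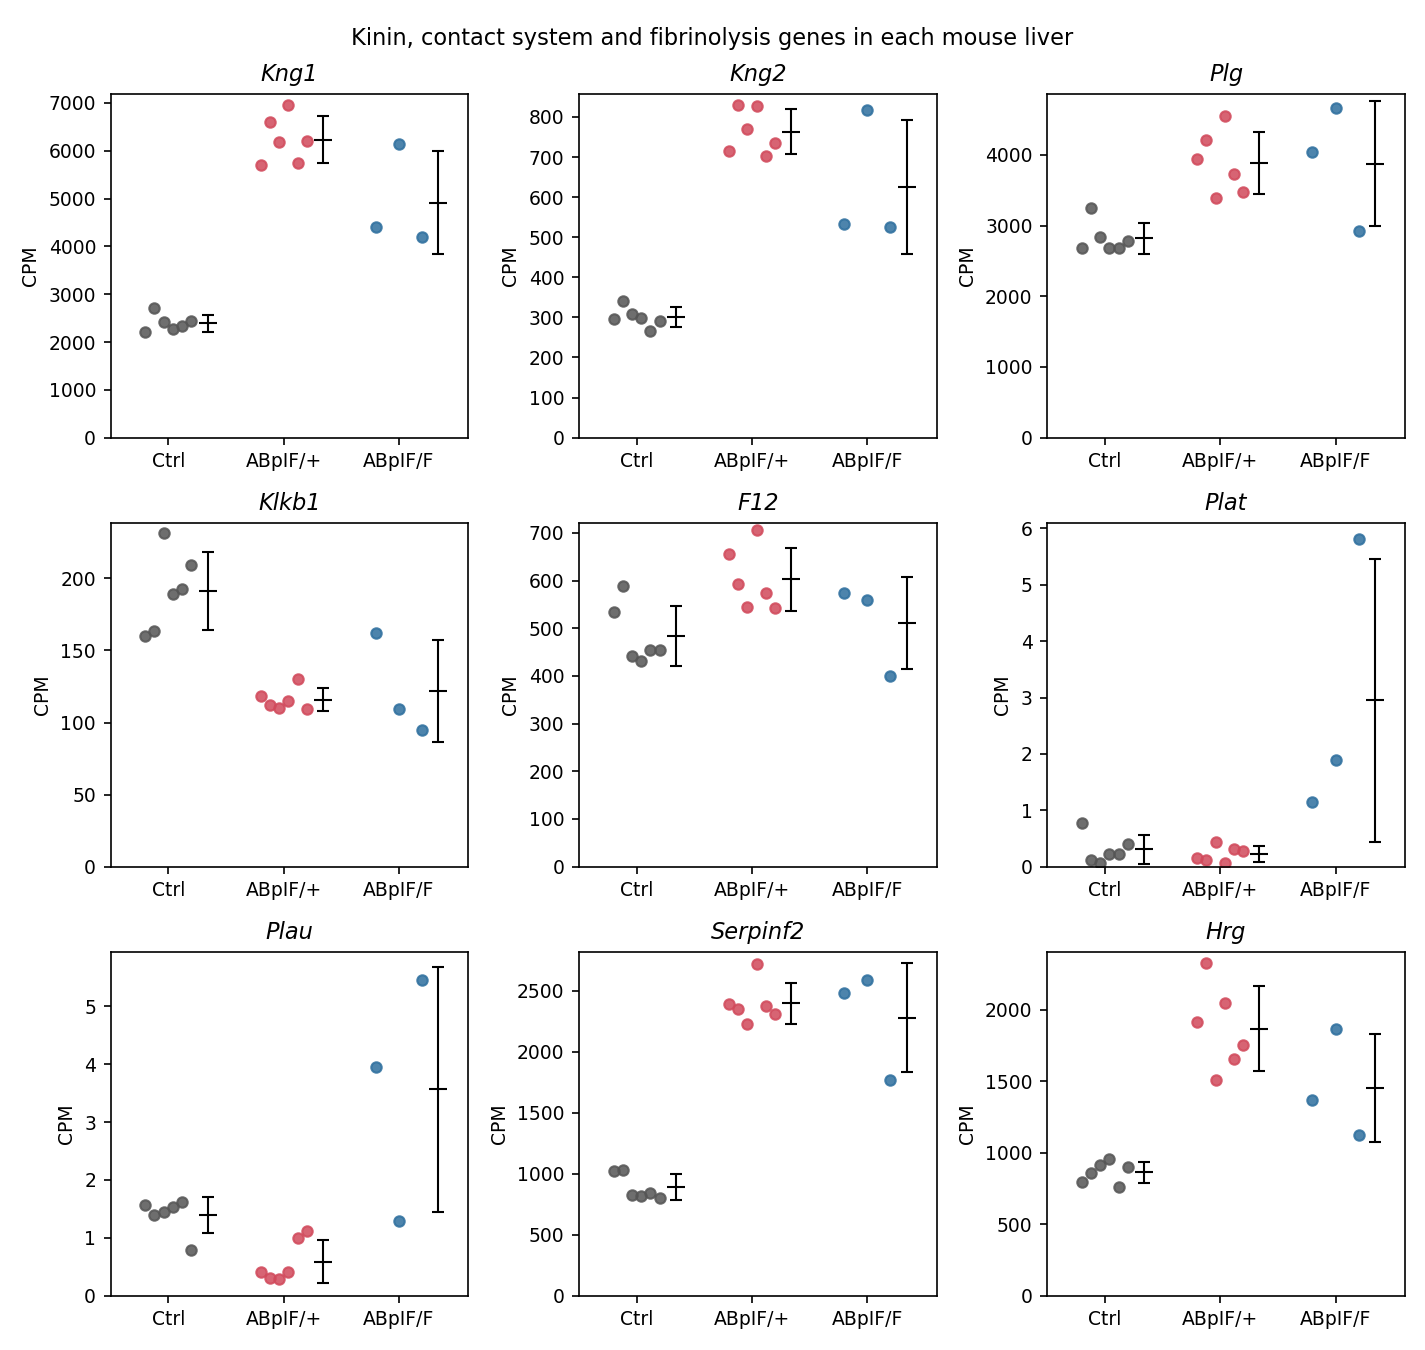
Levels (CPM, linear axis from 0) of the 9 genes, 1 point a mouse, with the mean and SD of each group (Ctrl n = 6, ABpIF/+ n = 6, ABpIF/F n = 3) as a black bar beside the points. *Kng1*, *Kng2*, *Serpinf2* and *Hrg* stand above Ctrl in all mice with the *Braf* allele, and *Plat* stands above both other groups in the 3 ABpIF/F mice.

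Plasminogen itself changed less. *Plg* (Entrez 18815, chr17:12378608-12419385) stood at 2676, 2734 and 3252 CPM in Ctrl, at 3395, 3840.3 and 4548.5 CPM in ABpIF/+ and at 4037.5, 4669.7 and 2925 CPM in BG183, BG90 and BG38. The ABpIF/+ mice lay above all Ctrl mice, the highest of which was BG3, while BG38 lay inside the Ctrl range. The rise was 1.38-fold in ABpIF/+ (log2 fold change 0.46 ± 0.14, adjusted p = 0.019) and did not pass in ABpIF/F (0.46 ± 0.17, adjusted p = 0.074). Without BG38 the latter was 0.63 (adjusted p = 0.0156), and without the ABpIF/+ mouse BG88 the former was 0.41 (adjusted p = 0.0599).

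Of the proteases of the contact system, *Klkb1* fell and *F12* passed in no comparison. *Klkb1* (Entrez 16621, chr8:45266689-45294859) stood at 160, 191 and 231.5 CPM in Ctrl, at 109.6, 114 and 130.4 CPM in ABpIF/+ and at 162, 109 and 94.8 CPM in BG183, BG90 and BG38. The ABpIF/+ mice all lay below Ctrl, and BG183 fell inside the Ctrl range. *Klkb1* fell by 0.72 on the log2 scale in ABpIF/+ (SE 0.13, adjusted p = 0.00019) and by 0.65 in ABpIF/F (SE 0.16, adjusted p = 0.00688). The second call was lost without BG90 (adjusted p = 0.051) and without BG38 (adjusted p = 0.076). The annotation also holds a protein-coding gene, *Gm45753*, that covers 25189 bases of *Klkb1* on the same strand. It shares 41.5% of the 150-base windows of the *Klkb1* transcript and has no row of its own in the count table.

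*F12* (Entrez 58992, chr13:55417958-55426793) stood at 431, 455 and 587.5 CPM in Ctrl, at 543, 582.5 and 706 CPM in ABpIF/+ and at 573, 559 and 400.4 CPM in BG183, BG90 and BG38. The groups overlapped in all 3 comparisons. The log2 fold change was 0.32 ± 0.13 in ABpIF/+ vs Ctrl (adjusted p = 0.0874) and 0.08 ± 0.16 in ABpIF/F vs Ctrl (adjusted p = 1). Without the Ctrl mouse BG3, the highest of its group, the first value was 0.38 (adjusted p = 0.0355), and by DESeq2 it was 0.30 (adjusted p = 0.0282), so whether *F12* rose depended on the mouse and the tool.

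**Figure D2:**
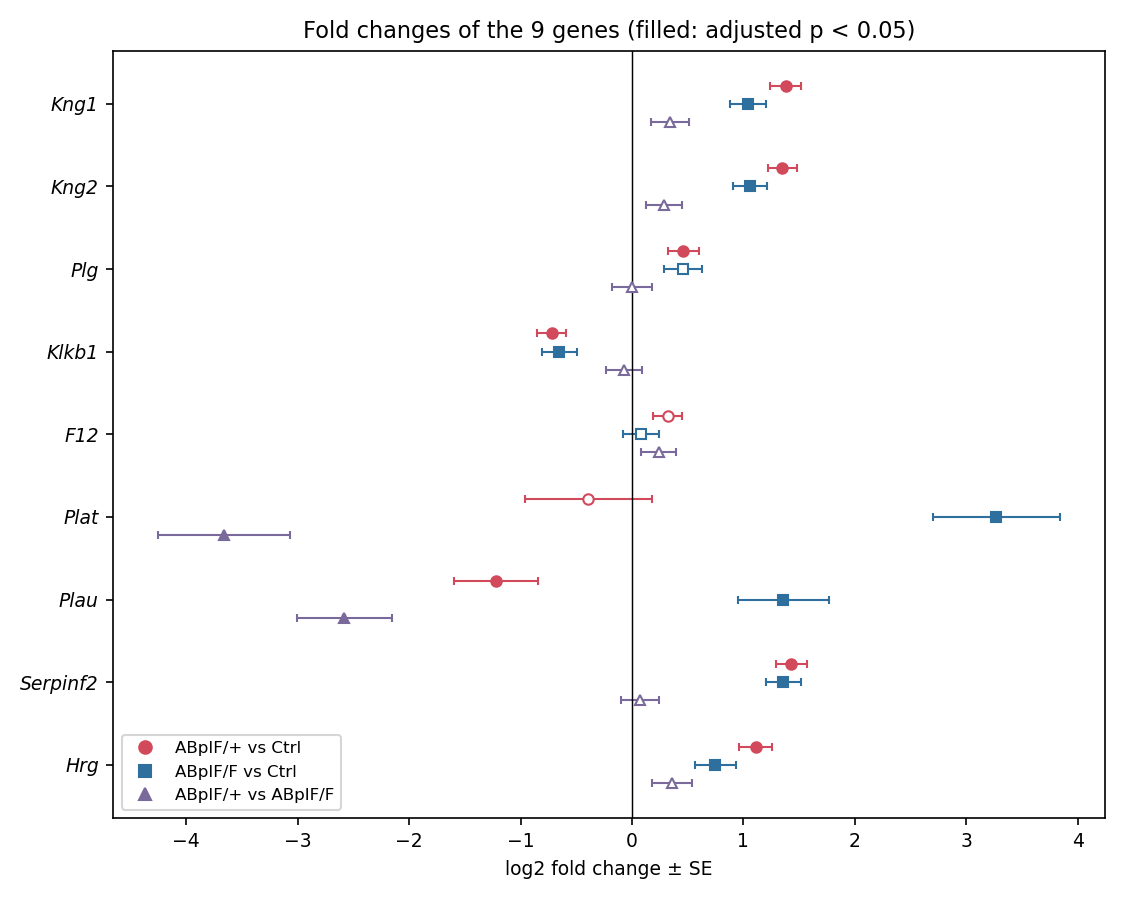
Log2 fold change with its standard error of the 9 genes in the 3 comparisons, from 1 edgeR fit of all 15 mice, with filled symbols where the adjusted p was under 0.05. *Kng1*, *Kng2*, *Serpinf2* and *Hrg* lie to the right of 0 in both comparisons with Ctrl, *Klkb1* to the left, and *Plat* and *Plau* are the filled symbols of ABpIF/+ vs ABpIF/F.

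In ABpIF/F vs Ctrl, 6 of the 9 genes rose (*Kng1*, *Kng2*, *Hrg*, *Serpinf2*, *Plat* and *Plau*), against 9.7% of all genes, and 1 fell (*Klkb1*), against 7.36%. Under the stricter rule 4 were called up (*Kng1*, *Kng2*, *Serpinf2* and *Plat*), against 4.55% of all genes, and 0 down, against 2.38%. Among the genes averaging 1 CPM or more, 16.1% rose and 15.7% fell, and the groups did not overlap in 31.6%, against 5 of the 9. The median log2 fold change of the 9 genes was 1.04. Both comparisons with Ctrl use the same 6 Ctrl mice.

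The activators were the members that separated the 2 groups with the *Braf* allele. In ABpIF/+ vs ABpIF/F, 0 of the 9 genes were higher in ABpIF/+, against 7.46% of all genes, and 2 were lower, *Plat* and *Plau*, against 10.7%. Both also passed the stricter rule, which 5.49% of all genes passed downward and 1.76% upward (0 members). Among the genes averaging 1 CPM or more, 16.6% were lower in ABpIF/+ and 34.2% did not overlap, so a count of 2 of 9 is near the background. *Kng1*, *Kng2* and *Hrg* were at log2 differences of 0.34 ± 0.17, 0.29 ± 0.16 and 0.36 ± 0.18, higher in ABpIF/+, with adjusted p of 0.201, 0.262 and 0.204. By DESeq2 the *Kng1* difference was 0.33 (adjusted p = 0.0341), and without BG90 that of *Kng2* was 0.53 (adjusted p = 0.0359), so these calls turned on the tool and on 1 mouse. *Serpinf2*, *Plg* and *Klkb1* lay within 0.07 of no difference, with standard errors of 0.17, 0.18 and 0.16.

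*Plat* (Entrez 18791, chr8:22757727-22782844), tissue-type plasminogen activator, was barely detected in Ctrl, with 2 to 21 reads a mouse, and in ABpIF/+, with 2 to 11 reads. That is 0.0706 to 0.782 CPM (median 0.221) and 0.0737 to 0.444 CPM (median 0.212). The ABpIF/F mice BG183, BG90 and BG38 had 35, 53 and 210 reads, or 1.14, 1.89 and 5.82 CPM, all above every mouse of the other groups. *Plat* was 9.64-fold higher in ABpIF/F than in Ctrl (log2 fold change 3.27 ± 0.57, adjusted p = 0.000249) and 12.7-fold higher than in ABpIF/+ (log2 fold change of ABpIF/+ vs ABpIF/F -3.66 ± 0.59, adjusted p = 0.000139). BG38 carried much of that size. Without it the log2 fold changes were 2.30 against Ctrl (adjusted p = 0.0173) and -2.70 for ABpIF/+ vs ABpIF/F (adjusted p = 0.00653), and with each mouse left out in turn they ran from 2.30 to 3.79 and from -4.05 to -2.70. The ABpIF/+ vs Ctrl value was -0.39 ± 0.57 (adjusted p = 0.833).

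*Plau* (Entrez 18792, chr14:20836660-20843385), urokinase, stood at 0.783, 1.49 and 1.62 CPM in Ctrl, at 0.282, 0.410 and 1.13 CPM in ABpIF/+ and at 3.95, 1.29 and 5.46 CPM in BG183, BG90 and BG38. The ABpIF/+ and Ctrl mice overlapped, BG90 lay inside the Ctrl range, and the ABpIF/F mice lay above all ABpIF/+ mice. *Plau* fell by 1.22 on the log2 scale in ABpIF/+ vs Ctrl (SE 0.38, adjusted p = 0.0202), rose 2.56-fold in ABpIF/F vs Ctrl (adjusted p = 0.0248), and was 5.96-fold higher in ABpIF/F than in ABpIF/+ (adjusted p = 0.000186). The rise over Ctrl was lost without BG38 (log2 fold change 0.91, adjusted p = 0.295), without BG183 (1.28, adjusted p = 0.0713) and without the Ctrl mouse malpa462 (1.24, adjusted p = 0.0553).

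Markers of cells other than hepatocytes were lower, like the activators, in ABpIF/+ than in ABpIF/F. Against Ctrl they did not all follow *Plat* and *Plau*. In ABpIF/+ vs Ctrl 7 of 8 stellate cell, 5 of 8 endothelial and 5 of 7 macrophage markers fell. *Plau* fell there too and *Plat* did not. Of the other lists, 2 of 8 lymphocyte and 1 of 6 neutrophil markers fell, and 1 of 6 cholangiocyte markers fell while 1 rose. In ABpIF/F vs Ctrl 1 stellate cell, 1 endothelial, 0 macrophage, 2 lymphocyte, 5 cholangiocyte and 6 neutrophil markers rose. Over the 8 stellate cell and fibroblast markers the summed level was 172.5 to 239 CPM in Ctrl, 40.1 to 86.6 CPM in ABpIF/+ and 156 to 269.5 CPM in ABpIF/F, and 8 of 8 were lower in ABpIF/+ than in ABpIF/F. The 8 endothelial markers summed to 209 to 313 CPM in Ctrl, 96.6 to 221 CPM in ABpIF/+ and 239 to 337 CPM in ABpIF/F, with 4 of 8 lower in ABpIF/+ than in ABpIF/F. The 6 cholangiocyte markers summed to 35.8 to 68.4, 29.9 to 145 and 205 to 1150 CPM in the same order, and 6 of 6 were lower in ABpIF/+ than in ABpIF/F. Most of that sum was *Spp1*, with 175.1, 724.1 and 1080.8 CPM in BG183, BG90 and BG38. *Krt19*, *Krt7*, *Epcam* and *Cftr* lay between 0.653 and 11.0 CPM in these mice. The other lists moved likewise in ABpIF/+ vs ABpIF/F. Of 7 macrophage markers 6 were lower, with sums of 96.4 to 155 CPM in ABpIF/+ and 180 to 376 CPM in ABpIF/F, and of 8 lymphocyte markers 5 were lower, with sums of 0.927 to 2.33 CPM and 4.47 to 12.7 CPM. Neutrophil markers summed to 2.18 to 7.22 CPM in ABpIF/+ and to 4.73, 28.9 and 84.3 CPM in BG183, BG90 and BG38, with 5 of 6 lower in ABpIF/+, and the neutrophil marker *Ly6g* had 12 reads in BG38, 1 in the ABpIF/+ mouse BG55 and 0 in all other mice. BG38, the mouse with the highest *Plat* and *Plau*, also had the highest stellate, cholangiocyte, macrophage, neutrophil and lymphocyte sums. The part of these cells in the *Plat* and *Plau* values was not tested, and in bulk tissue fewer cells of a type and less RNA per cell cannot be told apart.

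**Figure D3:**
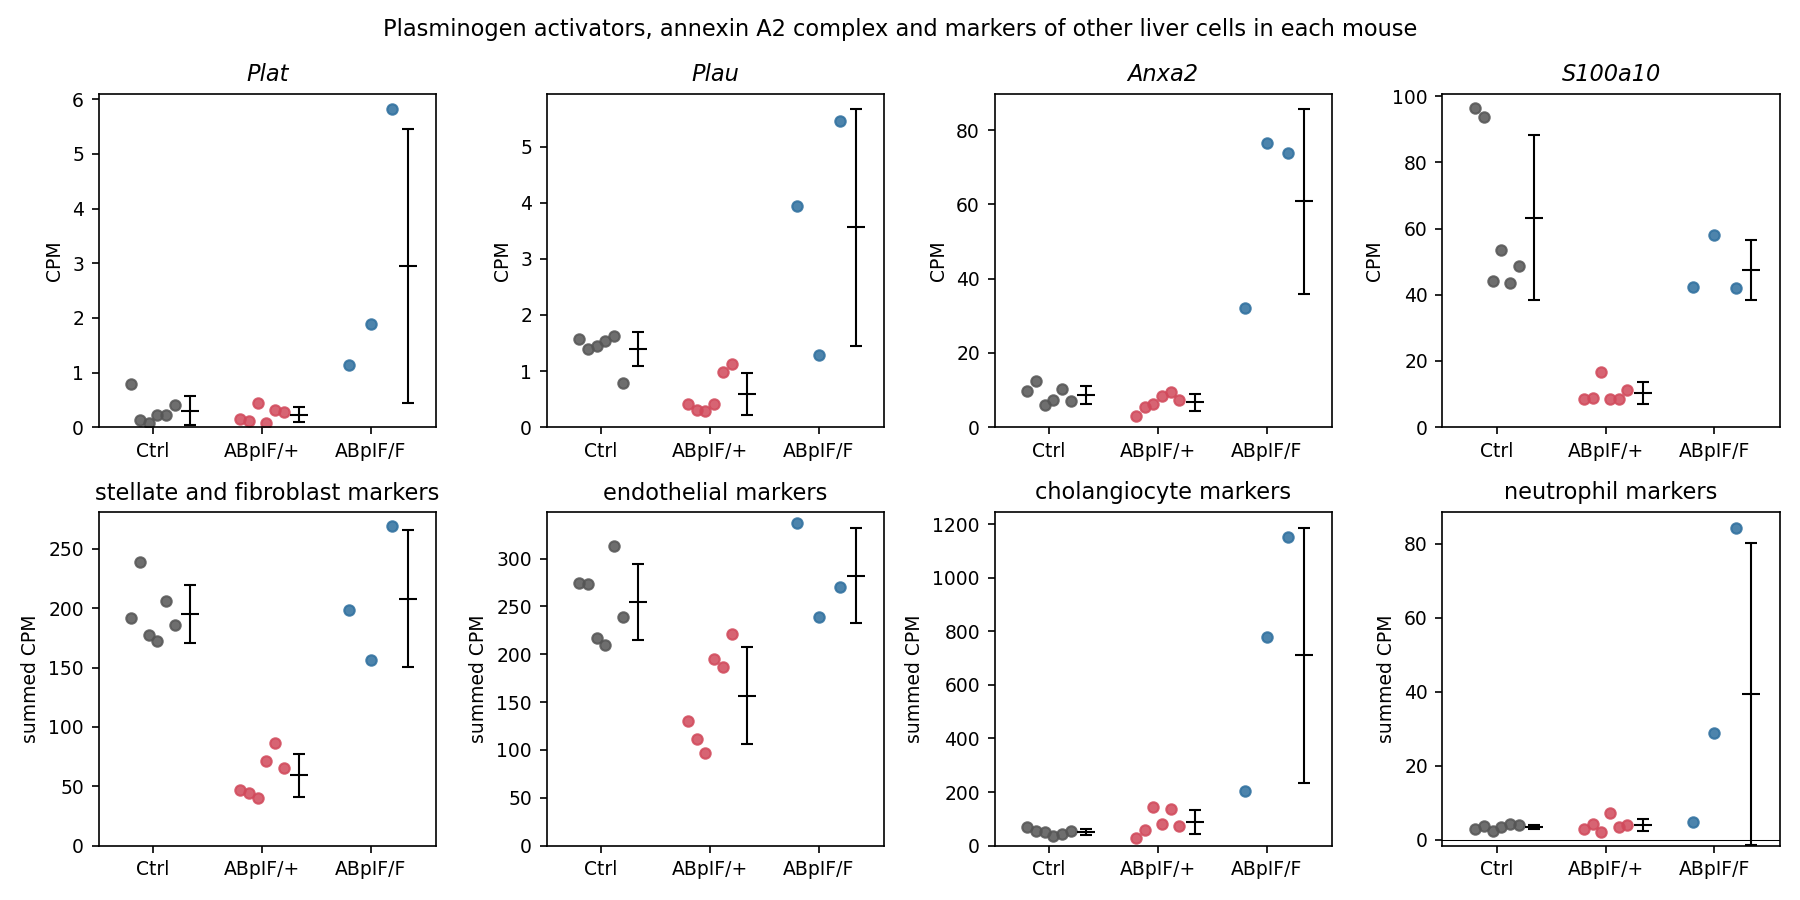
*Plat*, *Plau* and the genes of the annexin A2 complex (top row, CPM) and the summed levels of 4 lists of markers of other liver cells (bottom row, CPM summed over the list), 1 point a mouse, with group mean and SD. *Plat*, *Anxa2* and the cholangiocyte marker sum are higher in the 3 ABpIF/F mice than in any other mouse. Most of that sum is *Spp1* in these mice. *S100a10* and the stellate cell marker sum are lowest in ABpIF/+.

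Hepatocyte markers moved with the kininogens, *Hrg* and *Serpinf2*. Of 9 hepatocyte markers, 5 rose and 2 fell in ABpIF/+ vs Ctrl, and 3 rose and 3 fell in ABpIF/F vs Ctrl. Their summed level did not overlap between ABpIF/+ and Ctrl, while BG38 lay inside the Ctrl range with 126187 CPM. Their part in the rise of the 4 genes was not tested.

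Levels of different genes were compared after division by the exon length of the basic annotated transcripts. In Ctrl the order was *Plg* with 1023 ± 80.5 CPM per kb (SD, n = 6), *Kng1* with 769 ± 57.5, *Hrg* with 432 ± 37.6, *Serpinf2* with 399.6 ± 47.4, *F12* with 247 ± 31.9, *Kng2* with 119.7 ± 9.79, *Klkb1* with 36.4 ± 5.18, *Plau* with 0.594 ± 0.132 and *Plat* with 0.121 ± 0.103. *Hrg* and *Serpinf2* overlapped over mice, and no other neighbours in this order did. In ABpIF/+ *Kng1* led with 2001 ± 157 CPM per kb, ahead of *Plg* with 1409 ± 161, and *Serpinf2* with 1077 ± 76.6 stood beside *Hrg* with 937 ± 147.5. The pairs *Serpinf2* and *Hrg*, *F12* and *Kng2*, and *Plau* and *Plat* overlapped there. In ABpIF/F *Kng1* with 1579 ± 344 CPM per kb and *Plg* with 1406 ± 320.5 (n = 3) overlapped. *Plau* and *Plat* were the lowest of the 9 in each group, with 1.52 ± 0.902 and 1.17 ± 0.994 CPM per kb in ABpIF/F against 23.2 ± 6.72 for *Klkb1*. With exon lengths over all annotated transcripts, an alternative added after the data were seen, the order in each group was the same, but *Plg* and *Kng1* in Ctrl (760.0 ± 59.8 and 737 ± 55.1) and *Plg* and *Serpinf2* in ABpIF/+ overlapped, *Kng1* and *Plg* in ABpIF/F did not, and *Plat* was at 0.0488 ± 0.0418 in Ctrl and 0.473 ± 0.402 in ABpIF/F.

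*Hrg*, *Serpinf2* and the kininogens had a kininogen as their nearest gene in profile. For each gene, log2 CPM was centred on its own mean over the 15 mice, and the root mean square difference to 12315 other genes (12316 for *Plat*, itself below 1 CPM on average) was taken. Nearest to *Kng1* was *Kng2*, with a difference of 0.063 log2 units, where *Kng1* itself varied by 0.646. *Kng2* was also the nearest gene to *Hrg* (0.188), and *Kng1* and *Kng2* were the nearest to *Serpinf2* (0.191 and 0.192). After these, *Serpina3m*, a serpin, was next to both kininogens (0.168 and 0.186) and *Trim3* next to *Hrg* (0.200). Nearest to *Plg* were *F2*, which encodes prothrombin, and *Chmp6* (0.107 and 0.122). *Klkb1* was closest to *Acbd5* and *Nadk2* (0.104 and 0.111), *F12* to *Slc35b2* and *Smpd1* (0.090 and 0.097), *Plat* to *Egflam* and *Mx1* (0.546 and 0.640), and *Plau* to *Myh11*, a smooth muscle myosin, and *Pxdn* (0.429 and 0.471). These are descriptions over 15 mice that share their group means, and the low counts of *Plat* and *Plau* widen their distances.

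On chromosome 16 the rise was not shared by all neighbours. Within 250 kb of the *Kng1* start, 11 genes averaged 1 CPM or more. *Ahsg*, which encodes fetuin-A and starts 166.6 kb from *Kng1*, rose 1.85-fold in ABpIF/+ vs Ctrl (adjusted p = 0.000225) and 1.66-fold in ABpIF/F vs Ctrl (adjusted p = 0.00962). *Fetub*, which encodes fetuin-B and lies between *Ahsg* and *Hrg*, was at log2 fold changes of 0.17 ± 0.14 (adjusted p = 0.486) and 0.20 ± 0.17 (adjusted p = 0.542). On the other side, *Eif4a2* at 49.6 kb was at -0.42 and -0.56 (adjusted p = 0.0173 and 0.0175), *B630019A10Rik* at 117.4 kb was at -1.14 and -1.08 (adjusted p = 0.000193 and 0.00444), and *St6gal1* at 166.9 kb was at 0.27 and 1.33 (adjusted p = 0.27 and 2.25e-05). At the *Klkb1* locus on chromosome 8, the neighbour *Cyp4v3* fell in both comparisons (log2 fold changes -1.80 and -1.14), and *F11*, on the other side, passed in neither (-0.47 ± 0.19 and 0.50 ± 0.23). *Gm45753*, which covers much of *Klkb1*, also overlaps 3523 bases of *Cyp4v3* on the same strand. Whether this ties the values of *Klkb1* and *Cyp4v3* was not tested.

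**Figure D4:**
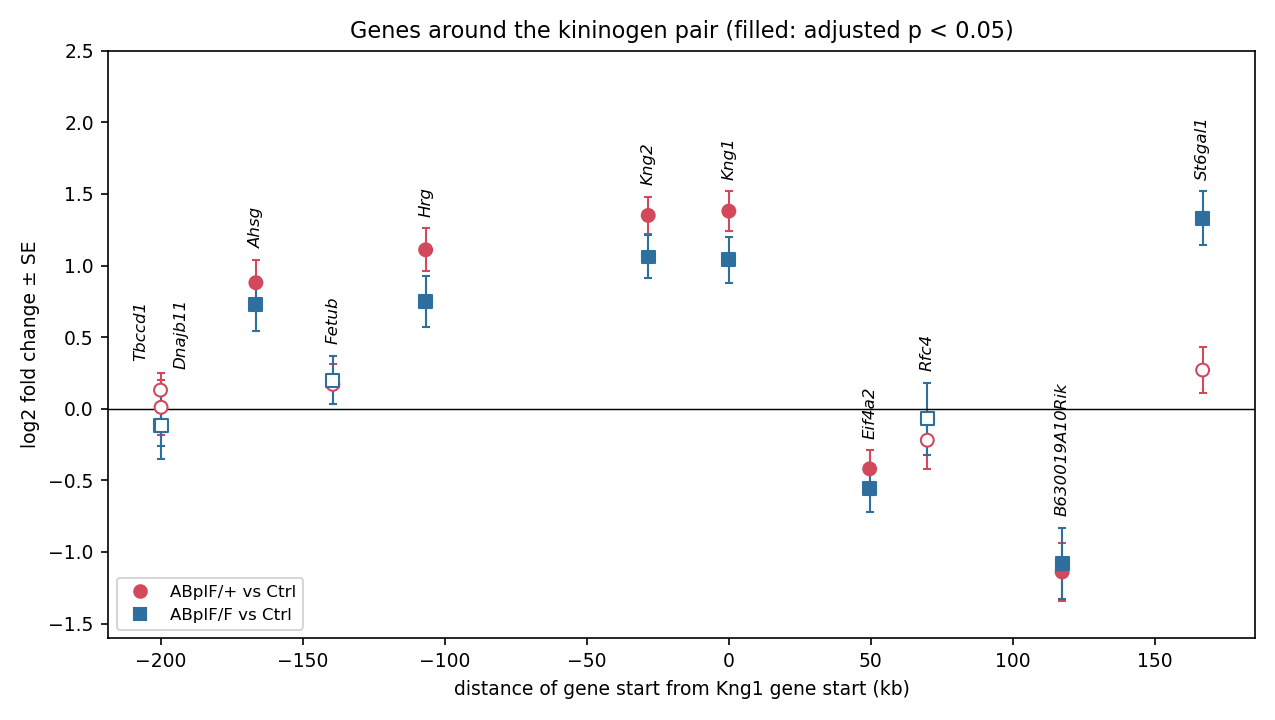
Log2 fold change with standard error against Ctrl of the 11 genes averaging 1 CPM or more that lie within 250 kb of the *Kng1* start, by distance of their start from that of *Kng1* in kb, with filled symbols where the adjusted p was under 0.05. *Ahsg*, *Hrg*, *Kng2* and *Kng1* are up in both comparisons, while *Fetub* among them passed in neither, and on the other side *Eif4a2* and *B630019A10Rik* are down and *St6gal1* is up in ABpIF/F.

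Of the 15 other kinin and contact system genes, 2 rose and 1 fell in ABpIF/+ vs Ctrl, and 3 rose and 1 fell in ABpIF/F vs Ctrl. In ABpIF/+ vs ABpIF/F, 2 were higher and 5 lower in ABpIF/+. The shares of all genes were 12.7% up and 12.7% down, 9.7% and 7.36%, and 7.46% and 10.7% in the same order. Among genes averaging 1 CPM or more they were 24.1% and 23.3%, 16.1% and 15.7%, and 15.8% and 16.6%. The counts in ABpIF/+ vs Ctrl are thus near the background or below it. The enzymes that break down kinins moved most and in different directions. *Cpm*, carboxypeptidase M, stood at 3.51 ± 1.02 CPM in Ctrl, 19.1 ± 3.98 CPM in ABpIF/+ and 5.60 ± 0.769 CPM in ABpIF/F, a 5.42-fold rise in ABpIF/+ vs Ctrl (adjusted p = 1.73e-09) and 3.4-fold higher than in ABpIF/F (adjusted p = 2.01e-05). *Mme*, neprilysin, went the other way, from 36.4 ± 15.6 CPM in Ctrl to 4.64 ± 1.80 CPM in ABpIF/+ (7.83-fold lower, adjusted p = 4.39e-06) and stood at 17.6 ± 6.28 CPM in ABpIF/F (adjusted p = 0.0658 vs Ctrl). *Ace*, angiotensin-converting enzyme, stood at 1.11 ± 0.196, 2.64 ± 1.18 and 8.78 ± 4.79 CPM in the 3 groups, 2.36-fold higher in ABpIF/+ (adjusted p = 0.00402) and 7.85-fold higher in ABpIF/F (adjusted p = 2.24e-06) than in Ctrl.

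The kinin receptors were close to absent from these libraries. *Bdkrb1* had 1, 4 and 2 reads in total in Ctrl, ABpIF/+ and ABpIF/F, and *Bdkrb2* had 21, 5 and 56. Single ABpIF/F mice had 11 to 30 *Bdkrb2* reads and single ABpIF/+ mice at most 3, a difference that passed (adjusted p = 0.00323), but no fold is given at such counts. *Serping1*, the C1 inhibitor that blocks factor XII and kallikrein, stood at 761 ± 57.8, 648 ± 89.2 and 1172 ± 353 CPM, 1.54-fold higher in ABpIF/F than in Ctrl (adjusted p = 0.0139) and 1.81-fold higher than in ABpIF/+ (adjusted p = 0.00116). *F11*, which encodes factor XI, was 1.95-fold higher in ABpIF/F than in ABpIF/+ (adjusted p = 0.00429).

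**Figure D5:**
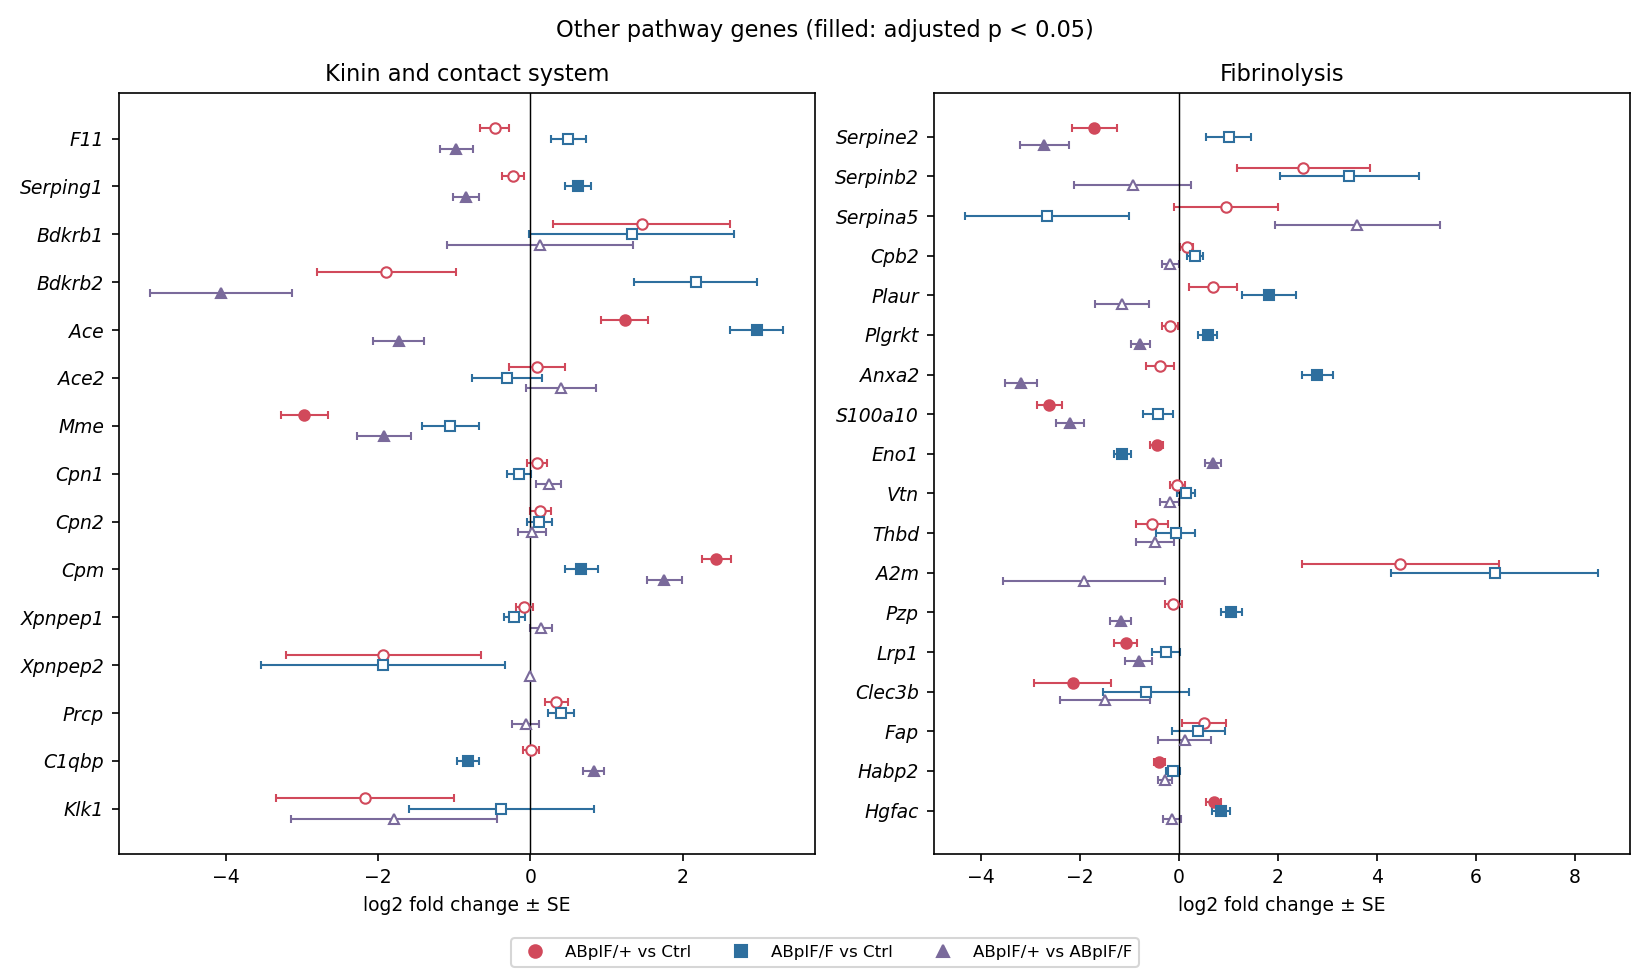
Log2 fold change with standard error of the 15 other kinin and contact system genes (left) and the 18 other fibrinolysis genes (right) in the 3 comparisons, with filled symbols where the adjusted p was under 0.05. *Cpm* and *Mme* lie on opposite sides of 0 in ABpIF/+ vs Ctrl, and *Anxa2*, *Serpine2* and *S100a10* lie to the left in ABpIF/+ vs ABpIF/F.

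Of the 18 other fibrinolysis genes, 1 rose and 6 fell in ABpIF/+ vs Ctrl, 5 rose and 1 fell in ABpIF/F vs Ctrl, and 1 was higher and 6 lower in ABpIF/+ than in ABpIF/F, where their median log2 fold change was -0.79. The shares were 24.1% up and 23.3% down, 16.1% and 15.7%, and 15.8% and 16.6% among genes averaging 1 CPM or more. Among the 6 lower genes were *Anxa2* and *S100a10*, cell surface proteins that hold plasminogen and its activators. *Anxa2*, annexin A2, stood at 8.75 ± 2.43, 6.71 ± 2.29 and 60.8 ± 24.9 CPM, 6.96-fold higher in ABpIF/F than in Ctrl (adjusted p = 1.41e-05) and 9.04-fold higher than in ABpIF/+ (adjusted p = 1.08e-05). *S100a10*, its partner, stood at 63.3 ± 24.9, 10.4 ± 3.33 and 47.4 ± 9.06 CPM, 6.1-fold lower in ABpIF/+ than in Ctrl (adjusted p = 1.03e-06). *Plaur*, the urokinase receptor, was 3.54-fold higher in ABpIF/F than in Ctrl (adjusted p = 0.0225), with 24, 34 and 122 reads in BG183, BG90 and BG38 against 3 to 27 in Ctrl. *Eno1*, a glycolytic enzyme that also binds plasminogen at the cell surface, was 2.2-fold lower in ABpIF/F than in Ctrl (adjusted p = 3.43e-05).

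*Serpine2*, protease nexin-1, stood at 0.625 ± 0.170, 0.190 ± 0.133 and 1.25 ± 0.865 CPM, 3.24-fold lower in ABpIF/+ than in Ctrl (adjusted p = 0.00585) and 6.52-fold lower than in ABpIF/F (adjusted p = 0.000444). These folds rest on few reads, 14 to 24 a mouse in Ctrl and 2 to 12 in ABpIF/+. BG183, BG90 and BG38 had 20, 24 and 81 *Serpine2* reads, and BG183 and BG90 lay inside the Ctrl range in CPM. *Pzp*, a plasma protease trap, stood at 9497, 12341 and 8203 CPM in BG183, BG90 and BG38 and at 3364 to 6206 CPM in Ctrl, 2.09-fold higher (adjusted p = 0.000656). *Lrp1*, an endocytic receptor that clears plasminogen activators, was 2.1-fold lower in ABpIF/+ than in Ctrl (adjusted p = 0.0011). *Cpb2*, the carboxypeptidase that slows fibrinolysis, was at log2 fold changes of 0.16 ± 0.14 and 0.33 ± 0.17 against Ctrl, and neither passed (adjusted p = 0.497 and 0.21).

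Strain label and clock score bear on how firmly these values stand. With the strain label as a term, which leaves the Ctrl mouse BG3 alone to stand for Ctrl, the log2 fold changes in ABpIF/+ vs Ctrl were 1.20 for *Kng1*, 1.16 for *Kng2*, 1.12 for *Hrg* and 1.22 for *Serpinf2* (adjusted p = 0.00647, 0.00439, 0.0168 and 0.00444), and *Plg*, *Klkb1* and *Plau*, at 0.26, -0.50 and -1.22, no longer passed (adjusted p = 0.794, 0.193 and 0.32). The *Plau* value was the same as without the term. In ABpIF/F vs Ctrl the same fit kept *Kng2*, *Serpinf2* and *Plat* (adjusted p = 0.0379, 0.0105 and 0.0341), while *Kng1* was at 0.86, *Hrg* at 0.76, *Klkb1* at -0.43 and *Plau* at 1.36 (adjusted p = 0.0617, 0.138, 0.377 and 0.376). With the clock score as a covariate the 7 calls of ABpIF/+ vs Ctrl stayed past the threshold. The score ran from -1.06 to 1.58 in ABpIF/F, a range that only malpa387 of the Ctrl and ABpIF/+ mice reached. Genotype and score can therefore hardly be told apart in the comparisons with ABpIF/F. In ABpIF/F vs Ctrl 3 stayed, *Kng1*, *Kng2* and *Serpinf2* (log2 fold changes 0.98, 0.89 and 1.14), and *Hrg*, *Klkb1*, *Plat* and *Plau* were at 0.72, -0.32, 2.37 and 1.49 (adjusted p = 0.162, 0.481, 0.0924 and 0.181). In ABpIF/+ vs ABpIF/F *Plau* stayed (-2.74, adjusted p = 0.0237) while *Plat* did not (-2.43, adjusted p = 0.126).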

How the data were processed

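Per the labels, polyA RNA of murine livers was extracted with Trizol and made into stranded libraries; the authors aligned reads to mm10 with HISAT2 and counted them with featureCounts 2.0.8. The annotation and strand setting are not given in the sources used here. Both deposited files give unnormalized counts for 27179 genes, 1 column a mouse for 15 mice, and columns of the authors' own comparisons, which were not used. They were equal in all 27179 genes over 10 columns, and 5 per-sample columns of the second were not used. The 23 listed samples name 15 mice, 8 of them by 2 samples. Groups came from the genotype labels. The labels of both groups with the Braf allele write BRAF +/+, and the allele given here follows the series' design text.

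Counts were analysed in R 4.3.3 with the edgeR 4.0.16 quasi-likelihood test in its edgeR 3 form (all genes kept, TMM, robust, 3 groups in 1 fit), with Benjamini-Hochberg adjustment over all genes, and the code was checked on simulated counts. A gene rose or fell at an adjusted p under 0.05, and the stricter rule was an adjusted p under 0.01 with a 2-fold change. P-values rest on the spread between mice. CPM used TMM-scaled libraries, with a prior count of 2 on the log2 scale. Exon lengths and positions came from GENCODE M21 (GRCm38). Named were the 9 genes, other pathway genes past the stricter rule, direct partners of the members (1 of them is not reported here), genome neighbours and, for each gene, the 2 nearest in profile. Cyp4v3, Eif4a2, B630019A10Rik and St6gal1 were chosen for their place after values were seen. The members and lists were chosen with earlier results of these data known. Alternatives were 3 other scalings, DESeq2 1.42.0, a filter on low counts, 2 other dispersion settings, fits of 2 groups, the second table, each mouse left out, strain label, a clock score of 12 genes, 2 other thresholds, a prior count of 5, and the kininogens summed.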

Additional observations from a re-analysis of the deposited data

Results flagged for a closer look

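Plat and Plau differed between the 2 groups with the Braf allele in their effect against Ctrl. The effect in ABpIF/+ minus that in ABpIF/F was -3.66 for Plat (adjusted p = 0.000139) and -2.58 for Plau (adjusted p = 0.000186) on the log2 scale, by edgeR. Ctrl cancels out of this difference, so it is the ABpIF/+ vs ABpIF/F test given above and not a further test. Plau moved in opposite directions against the same Ctrl mice. Markers of other liver cells were also lower in ABpIF/+ than in ABpIF/F, in part or all of each list. Against Ctrl they did not all follow Plat and Plau, as given above, and their part was not tested.

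In 3 of 18 groups of 6 mice, 1 mouse stood far from the others by Dixon's criterion, which chance gives in about 1 in 20 groups (5%). These were Serpinf2 in the ABpIF/+ mouse BG88 (2721 CPM, the highest), Plg in the Ctrl mouse BG3 (3252 CPM, the highest) and Plau in the Ctrl mouse malpa462 (0.783 CPM, the lowest). BG3 is the Ctrl mouse that shares the strain label of the other groups.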

How the results depend on the processing

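Of 726 single-gene log2 fold changes under other settings, 691 kept their direction and their side of an adjusted p of 0.05. Among the 691 are the 27 values of the second table, whose compared counts are equal, so these could not differ. A left-out mouse from neither group of a comparison could act on it only through the shared scaling and spread. Members past 0.05 numbered 7 in ABpIF/+ vs Ctrl and 4 with the strain label as a term, and 7 in ABpIF/F vs Ctrl and 3 with the strain label or the clock score. Members past the stricter rule numbered 4 in ABpIF/F vs Ctrl, 0 with the strain label and 1 with the clock score. In ABpIF/+ vs ABpIF/F the 2 members past either rule became 1 past 0.05 and 0 past the stricter rule with the clock score. With each mouse left out, the counts past 0.05 ran from 6 to 8, from 5 to 7 and from 2 to 3 in the 3 comparisons, and those past the stricter rule from 4 to 5, from 2 to 4 and from 2 to 2. The count of 2 in ABpIF/F vs Ctrl came without the ABpIF/+ mouse BG175, and the cause was not tested. Values near 0 changed sign. Plat in ABpIF/+ vs Ctrl became 0.88 with the strain label and ran from -0.66 to 0.13 with a mouse left out. F12 in ABpIF/F vs Ctrl became -0.20 with the strain label and -0.07 with the clock score, and ran from -0.01 to 0.23. In ABpIF/+ vs ABpIF/F, Serpinf2 became -0.09 on library sizes alone and ran from -0.08 to 0.17, and Klkb1 ran from -0.22 to 0.19. On library sizes alone the median of all genes moved by -0.177 in ABpIF/+ vs Ctrl and -0.189 in ABpIF/+ vs ABpIF/F, and Plg in ABpIF/+ vs Ctrl was at 0.28 (adjusted p = 0.0658). With a prior count of 5, 17 of the 18 nearest genes in profile stayed the same. No paired analysis was possible because the replicate numbers only name mice in accession order and pair nothing. Counts of 2 to 21 reads of Plat a mouse limit its values in Ctrl and ABpIF/+.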
